A study of Mus musculus with 5 samples.

Results

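The comparison described here is that of mouse livers after 10 weeks on an atherogenic diet, the array named Ath10w, with livers after 1 week on it, the array named Ath1w. These are 2 of the 5 arrays of the study. They were picked by their sample titles, and the comparison was set with earlier results of these data known. The pair C10w and C1w, livers after 10 weeks and after 1 week of standard chow, was set beside it as the same interval without the diet. The remaining array, ST, holds livers of mice that spent 10 weeks on the diet and received atorvastatin, a statin, during the last 3 of them; its values are given beside the others, but it enters no comparison. All mice were C57B/L, 8 weeks old, and kept for 2 weeks before feeding began, and no group carried an altered gene. The 10-week mice of either pair were therefore also older at sampling than the 1-week mice, so feeding time and age cannot be told apart. Each array was hybridised with RNA from pooled livers of 1 group. The sources used here give neither the size of a pool, nor the sex of the mice, nor what the diet contained. With 1 array per group there is no spread between replicates and no test, and every ratio below describes these pools only.

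An atherogenic diet is a feed rich in fat and cholesterol, often with a bile acid, that raises blood lipids and promotes artery disease in mice. The liver answers dietary lipid through several sensors. SREBP2 is released when sterol in the endoplasmic reticulum is low and switches on the enzymes that build cholesterol, SREBP1c and ChREBP switch on fatty acid synthesis in the fed state, LXR and FXR are nuclear receptors that sense oxysterols and bile acids, and PPAR alpha drives fatty acid oxidation in fasting. Cholesterol is removed from the liver largely as bile acids, whose synthesis starts with Cyp7a1.

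The 1-week diet sample carries a conflict in its labels. Its source name says chow, whereas its title, description and protocols say atherogenic diet, and it was grouped by its title. Among the 10 pairs of arrays, Ath1w and C1w had the highest Spearman correlation over all probe sets, 0.946, against 0.912 for Ath10w and Ath1w and 0.911 to 0.927 for the other 8. For the preset clock genes Dbp, Nr1d1 and Arntl, by contrast, Ath1w lay with the other diet arrays and apart from both chow arrays. Other clock genes did not share this order. Clock had 422 in Ath1w, nearer to 355 in C1w than to 200 in Ath10w or 211 in ST. Per1 had 243 in Ath1w and 238 in C1w, and was below the floor in Ath10w. Which label is right was not tested. Many results are therefore also given with C1w in place of Ath1w, a setting added after the data had been seen. That setting compares diet with chow as well as 10 weeks with 1 week, so it cannot tell diet from feeding time. It does not settle which label is right. The Ath10w and Ath1w arrays also differed in technical measures. For the beta-actin control the 3' over 5' signal was 1.17 in Ath10w and 1.61 in Ath1w, and for Gapdh 0.832 in Ath10w and 1.01 in Ath1w. In addition, the 18S ribosomal RNA control signal was 1001 in Ath10w and 437 in Ath1w, and 61.3% of probe sets lay above the signal floor in Ath10w against 57.2% in Ath1w. The part of these differences in the ratios below was not tested.

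Signals are given in MAS5 units, on a linear scale with a trimmed mean of 500 per array, and ratios as log2 of the 10-week over the 1-week signal, so that 1.00 stands for 2-fold. Signals under the floor of 138.7, the 40th percentile of all signals, were set to it, and a ratio against such a signal is a bound, written as "at least N-fold". A gene was measured in a pair if at least 1 of its 2 signals lay above the floor, which held for 9096 of 12393 annotated genes in the diet pair. The other 3297 were at the floor in both Ath10w and Ath1w and have no ratio.

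In the diet pair 441 genes, 4.85% of those measured, were at least 2-fold higher in Ath10w than in Ath1w, and 336 genes, 3.69%, were at least 2-fold lower, 8.54% in all. The chow pair gave fewer: 224 of 9101 genes, 2.46%, were higher and 179, 1.97%, were lower in C10w than in C1w, 4.43% in all. The spread of the ratios was wider as well, with an SD over genes of 0.59 in the diet pair and 0.48 in the chow pair. Of genes with both signals above the floor, the central 95% ran from 2.16-fold lower to 2.20-fold higher in the diet pair and from 1.85-fold lower to 1.94-fold higher in the chow pair. At 4-fold or more, 23 genes were higher and 13 lower in Ath10w, against 8 higher and 5 lower in C10w. With C1w in place of Ath1w the diet count was 336 higher and 252 lower of 9196 genes, and the median of all ratios was 0.07. The list counts below are to be read beside these counts over all genes. A single pool on each side cannot show how much of either count comes from the feeding.

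The balance of higher and lower calls depended on the scaling. Of all diet-pair calls 56.8% were higher with the trimmed-mean scaling, 47.2% after quantile normalization (333 higher, 372 lower) and 46.6% after cyclic loess (338 higher, 388 lower). The median of all diet-pair ratios was 0.11 as scaled here and 0.04 after quantile normalization or cyclic loess. The excess of higher ratios lay in dim genes: the median was 0.20 and 0.23 in the 2 lower quartiles of mean signal, 0.06 in the next and -0.01 in the brightest. In the chow pair these medians lay between -0.01 and 0.04. No more is drawn from the balance. Some genes described below lie in these 2 lower quartiles, among them Idi1, Sqle, Lss, Cyp51 and Fen1. In the second quartile 197 of 2274 genes were higher in Ath10w and 104 lower.

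**Figure D1:**
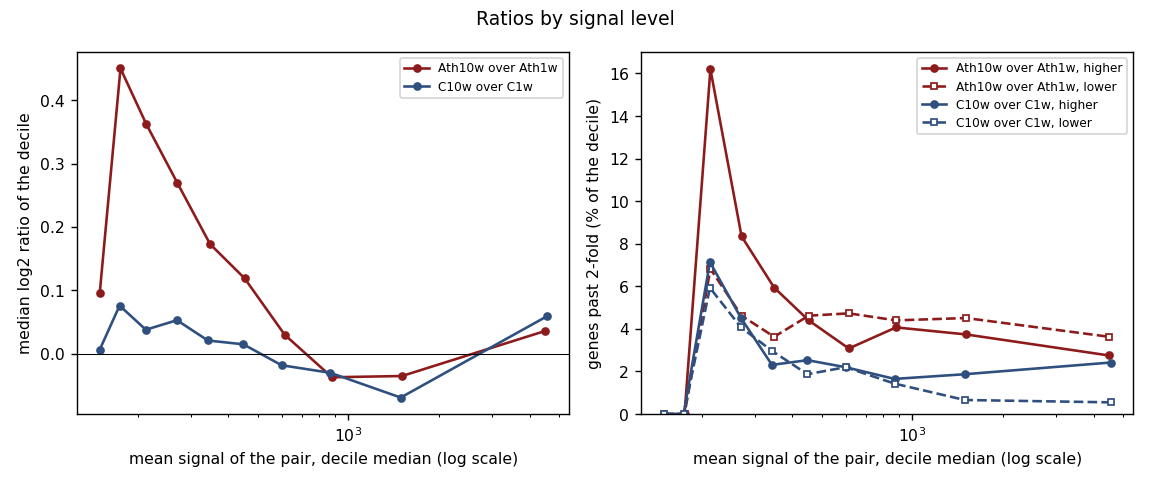
Ratios by signal level, with genes of each pair ranked by mean signal and split into deciles (x axis, median signal of the decile, log scale); the left panel plots the median log2 ratio and the right panel the percentage of genes at least 2-fold higher (filled circles) or lower (open squares), for Ath10w over Ath1w in red and C10w over C1w in blue. The diet-pair median reaches 0.45 in the second decile and lies between -0.04 and 0.04 in the 4 brightest, and the 2 dimmest deciles hold 0 calls because their signals lie too near the floor to differ by 2-fold.

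All 16 measured enzymes of cholesterol synthesis had a positive ratio, 8 passed 2-fold as higher in Ath10w than in Ath1w and 0 lower, and the median log2 ratio was 1.12, against 4.85% of genes higher and a median of 0.11 over all genes. Msmo1 and Cyp51 were at the floor in Ath1w and entered through Ath10w only, so their ratios had to be positive. Fdps, farnesyl diphosphate synthase, which makes the precursor of sterols and prenyl groups, had the largest ratio of all genes with both signals above the floor. Its signal was 2813 in Ath10w against 240.1 in Ath1w, 1198 in C10w against 422 in C1w, and 1771 in ST. Ath10w was the highest and Ath1w the lowest of the 5 arrays, so the ratio of 11.7-fold (log2 3.55) combines a high 10-week and a low 1-week value; against C1w it was 2.74. A second Fdps probe set was at the floor on both arrays, and the mean of both gave 1.78. Msmo1, the sterol C4-methyl oxidase, had 1229.8 in Ath10w against 130.0 in Ath1w, 153 in C10w against 204 in C1w, and 2427 in ST, which makes Ath10w at least 8.86-fold higher. Its 2 high arrays were those of 10 weeks on the diet, and the other 3 lay near the floor. Idi1, isopentenyl diphosphate isomerase, had 893 in Ath10w against 175 in Ath1w, 663 in C10w against 259 in C1w, and 1295 in ST. Its ratio was 2.35, but only 0.82 by its other probe set, and the 3 arrays of 10 weeks all exceeded the 2 of 1 week. Sc5d, sterol C5-desaturase, had 8188 in Ath10w against 1727 in Ath1w, 4415 in C10w against 1893 in C1w, and 4114 in ST, a ratio of 2.25 that its other probe set gave as 1.90.

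The remaining enzymes past 2-fold acted in the squalene and lanosterol steps. Squalene synthase Fdft1 had 1296 in Ath10w against 470.3 in Ath1w, log2 1.46, with other probe sets at 1.19 and 1.25. Squalene epoxidase Sqle had 578 in Ath10w against 201 in Ath1w (1.52), and lanosterol synthase Lss 548 in Ath10w against 212 in Ath1w (1.37). All 3 differed little between the chow arrays, at 0.06, -0.04 and -0.08. With C1w in place of Ath1w, Sqle was at 0.74, since its signal was 345 in C1w and only 201 in Ath1w. Nsdhl, which removes a methyl group from sterol precursors, was at 1.28. The smallest ratios were those of Tm7sf2 (0.32), Ebp (0.33) and Hmgcs1, the cytosolic HMG-CoA synthase (0.40), whose 3 other probe sets gave 1.03 to 1.80. The same list had a median of 0.50 in the chow pair, with 4 of 16 members at least 2-fold higher in C10w and 0 lower. Those 4 were Cyp51 (1.51), Fdps (1.51), Idi1 (1.36) and Sc5d (1.22). Of the 8 enzymes past 2-fold in the diet pair 3 were thus also at least 2-fold higher in C10w than in C1w, and Nsdhl was at 0.85 in the chow pair. With C1w in place of Ath1w, 6 of 16 were higher, 0 lower, and the median was 0.72.

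Of the 7 measured genes of sterol uptake and SREBP2 regulation 1 was higher and 1 lower. Stard4, a cytosolic sterol carrier, had 1518 in Ath10w against 537 in Ath1w, 283 in C10w against 437 in C1w, and 1168 in ST, log2 1.5. Both arrays of 10 weeks on the diet exceeded the other 3, and its second probe set gave 2.55. Insig2, a protein that holds the SREBP complex in the endoplasmic reticulum, was lower at -1.16, with 3783 in Ath10w against 8474 in Ath1w, 7484 in C10w against 10474 in C1w, and 3996 in ST. Its other 2 probe sets gave -1.91 and -1.76, so all 3 were past 2-fold. The LXR list, of genes that export sterol, held 0 of 10 members past 2-fold and had a median of -0.11. With the mean of all probe sets of each gene 2 were higher, 1 lower, and the median was 0.21. Abca1, the pump that loads cholesterol onto HDL, was at -0.13 by its brightest probe set but at 1.53 and 2.08 by its 2 others. The canalicular sterol transporters Abcg5 and Abcg8 were at 0.70 and 0.51, the phospholipid transfer protein Pltp at 0.86 and the HDL receptor Scarb1 at -0.88, whose 2 other probe sets both gave -1.76.

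Fatty acid synthesis held the most members past 2-fold. Among its 21 measured members, 11 passed 2-fold as higher in Ath10w and 0 as lower, 20 had a positive ratio, and the median was 1.01. Over all genes 4.85% were higher and 3.69% lower, with a median of 0.11. Members at the floor in Ath1w, such as Acaca and Scd2, had to have a positive ratio. In the chow pair the median was 0.20, with 3 of 20 members higher and 1 lower. Thrsp, a nuclear protein that promotes lipogenesis and is also called Spot14, had 11938 in Ath10w against 1273 in Ath1w, 2538 in C10w against 1474 in C1w, and 3922 in ST. Ath10w was 9.38-fold above Ath1w (log2 3.23, other probe set 3.95) and the highest array by a wide margin. Fasn, fatty acid synthase, had 3782 in Ath10w against 678 in Ath1w, 1244 in C10w against 750.2 in C1w, and 1122 in ST, a ratio of 2.48. Srebf1, the gene of SREBP1, had 3728 in Ath10w against 764 in Ath1w, 1737 in C10w against 625 in C1w, and 1923 in ST, a ratio of 2.29; C10w also exceeded C1w for this gene, by 1.47. Me1, malic enzyme, which supplies NADPH, had 7122 in Ath10w against 1554 in Ath1w, 3279 in C10w against 3192 in C1w, and 2425 in ST, a ratio of 2.20 with 1.00 by its other probe set. For Thrsp, Fasn, Srebf1 and Me1 alike, Ath10w was the highest of the 5 arrays, and for all but Srebf1 Ath1w was the lowest.

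The further members of this list past 2-fold spanned the pathway from glycolysis to desaturation. Pklr, the liver pyruvate kinase and a ChREBP target, had 2202 in Ath10w against 499 in Ath1w (2.14), and its 2 other probe sets gave 1.95 and 3.34. Acss2, which makes acetyl-CoA from acetate, was at 1.99, and Acly, which makes it from citrate, at 1.91. Pnpla3, a lipid droplet protein whose human variant raises liver fat, was at least 3.67-fold higher, the elongase Elovl6 was at 1.45, the mitochondrial acetyl-CoA carboxylase Acacb at 1.39 and the desaturase Fads1 at 1.01. Of the 10 members under 2-fold, Fads2, Tkfc, Elovl1, Elovl3 and Elovl5 lay between 0.11 and 0.35, Elovl2 at -0.24, and Scd2 was at least 1.65-fold higher. The ChREBP gene Mlxipl was at 0.85 and Scd1, stearoyl-CoA desaturase, at 0.84 by its brightest probe set, with signals of 35616 in Ath10w against 19942 in Ath1w, and at 3.21 by a dimmer one. The cytosolic carboxylase Acaca lay at the 2-fold line, at least 1.98-fold higher. Against C1w 10 of 21 members were higher, 0 lower, and the median was 0.99, a smaller shift of the median with the choice of 1-week array than for cholesterol synthesis.

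**Figure D2:**
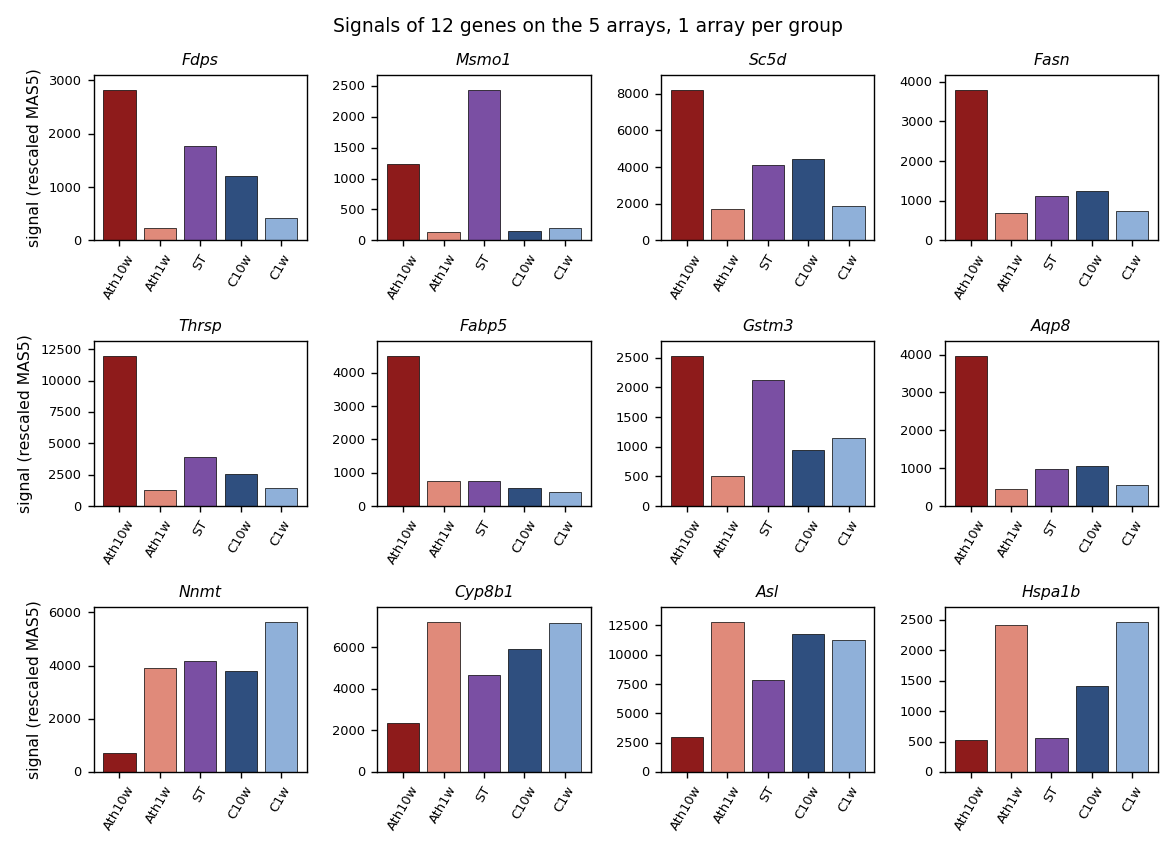
Signals of 12 genes (y axis, rescaled MAS5 units, each panel with its own scale from 0) in Ath10w, Ath1w, ST, C10w and C1w, 1 bar per array and no error bars because each group is 1 array. Thrsp at 11938, Fasn at 3782, Fabp5 at 4495 and Aqp8 at 3955 stand highest in Ath10w, whereas Nnmt at 708, Cyp8b1 at 2337, Asl at 2946 and Hspa1b at 519 stand lowest there.

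The letters upstream of these genes are shown for members of both lists that RefSeq's promoter table holds, since both lists were higher together. Each line below runs from 250 bases before to 50 after the start of transcription of the gene, on its own strand, in assembly GRCm38.p6. Capitals mark CCAAT, the binding letters of NF-Y, a factor that SREBPs work with, or its reverse complement ATTGG.
Msmo1, chr8:64733529-64733828, minus strand: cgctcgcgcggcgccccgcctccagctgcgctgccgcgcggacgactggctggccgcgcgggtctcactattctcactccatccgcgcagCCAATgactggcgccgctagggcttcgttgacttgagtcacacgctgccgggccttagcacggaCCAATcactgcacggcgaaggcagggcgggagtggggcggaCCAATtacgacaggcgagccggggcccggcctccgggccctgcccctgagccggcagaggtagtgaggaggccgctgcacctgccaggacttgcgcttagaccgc
Idi1, chr13:8885356-8885655, plus strand: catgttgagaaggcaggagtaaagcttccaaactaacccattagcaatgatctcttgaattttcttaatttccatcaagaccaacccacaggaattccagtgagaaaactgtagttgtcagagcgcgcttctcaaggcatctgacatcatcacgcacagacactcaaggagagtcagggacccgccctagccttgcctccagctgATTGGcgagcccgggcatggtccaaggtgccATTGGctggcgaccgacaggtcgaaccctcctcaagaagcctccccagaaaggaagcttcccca
Thrsp, chr7:97417501-97417800, minus strand: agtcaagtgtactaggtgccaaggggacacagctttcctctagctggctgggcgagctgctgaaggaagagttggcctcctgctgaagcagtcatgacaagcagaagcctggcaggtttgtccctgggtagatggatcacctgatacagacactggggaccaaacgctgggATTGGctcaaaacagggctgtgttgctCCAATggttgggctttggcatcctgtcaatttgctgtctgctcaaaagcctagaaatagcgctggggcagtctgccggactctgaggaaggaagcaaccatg
Fasn, chr11:120824498-120824797, minus strand: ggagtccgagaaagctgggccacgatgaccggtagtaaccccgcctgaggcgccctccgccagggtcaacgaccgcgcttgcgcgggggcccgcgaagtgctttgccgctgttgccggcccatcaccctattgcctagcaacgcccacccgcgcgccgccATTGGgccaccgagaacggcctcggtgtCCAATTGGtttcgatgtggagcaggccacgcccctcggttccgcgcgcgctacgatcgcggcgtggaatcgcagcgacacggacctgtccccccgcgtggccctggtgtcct
Msmo1 and Fasn hold 3 such matches, Idi1 and Thrsp 2, and the last 2 of Fasn overlap each other on opposite strands. All 13 cholesterol synthesis members with a promoter in the table and 13 of 17 fatty acid synthesis members (76.5%) hold CCAAT on either strand, against 42.1% of the 7355 genes measured in the diet pair with a promoter and 41.1% of all 27025 genes in the table. The sterol regulatory element searched as TCACNCCAC on both strands was found in 1 of 13 and 1 of 17 members, in 1.56% of the measured genes and in 1.44% of all promoters. The E-box CACGTG was found in 3 of 13 and 2 of 17 members, in 11.6% of the measured genes and in 8.09% of all. The D-box TTATGTAA was found in 0 of 13 and 0 of 17, in 0.734% and in 1.11%, and the nuclear receptor hexamer AGGTCA in 2 of 13 and 5 of 17, in 16.0% and in 18.1%. The 4 promoters shown hold 0 matches of any of the other motifs searched, so no overlap with a CCAAT match was possible. A match describes letters in this window and says nothing of binding in these livers.

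**Figure D3:**
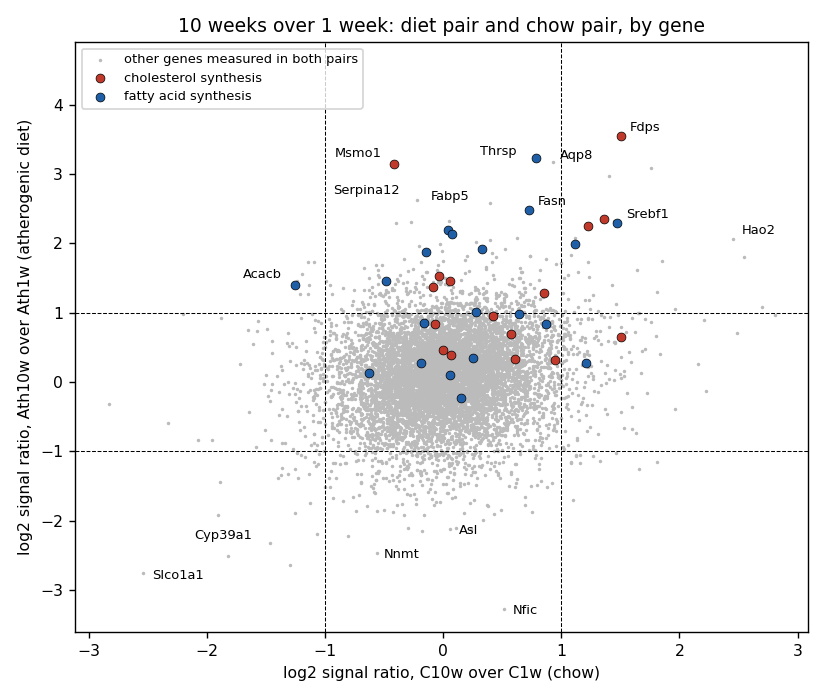
Log2 signal ratios of genes measured in both pairs, with Ath10w over Ath1w on the y axis and C10w over C1w on the x axis, 1 point per gene; cholesterol synthesis members are red, fatty acid synthesis members blue, other genes grey, and dashed lines mark 2-fold. Fdps (3.55 in the diet pair, 1.51 in the chow pair) and Srebf1 (2.29 and 1.47) lie past 2-fold in both, Msmo1, Thrsp and Fasn in the diet pair only, and Acacb (1.39 and -1.26) on opposite sides.

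Genes that assemble triglycerides and coat lipid droplets did not move together. Of 20 measured members 4 were higher and 2 lower, with a median of 0.13, against 4.85% and 3.69% of all genes and a median of 0.11. Fabp5, a fatty acid binding protein that is low in healthy liver, had 4495 in Ath10w against 755 in Ath1w, 542 in C10w against 413 in C1w, and 745 in ST. Ath10w stood apart from the other 4 arrays, all of which lay at or under 755, at 5.96-fold above Ath1w and by 3.46 on the log2 scale for the other probe set. Fitm1, which promotes droplet formation, had 1145 in Ath10w against 229 in Ath1w, 379 in C10w against 90.8 in C1w, and 323 in ST, a ratio of 2.32. Mogat1, a monoacylglycerol acyltransferase, was at 1.32 and the fatty acid importer Cd36 at 1.02. The lower members were coat proteins of the droplet. Plin5, which links droplets to mitochondria, had 668 in Ath10w against 2138 in Ath1w, 2018 in C10w against 1913 in C1w, and 1025 in ST, a ratio of -1.68, and Cidec, which enlarges droplets, was at least 3.06-fold lower, with 83.3 in Ath10w against 424 in Ath1w. Against C1w Cidec was only at -0.34, where its signal was 176 in C1w and 424 in Ath1w. With C1w as the 1-week array 5 members of this list were higher and 1 lower.

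Most ratios of fatty acid oxidation genes and PPAR alpha targets were negative. Of 23 measured members 0 were higher, 2 were lower, 18 had a negative ratio, and the median was -0.27, against -0.01 in the chow pair, where 0 of 24 passed 2-fold. Over all genes of the diet pair 4.85% were higher and 3.69% lower, with a median of 0.11. Acot1, a cytosolic acyl-CoA thioesterase, had 1125 in Ath10w against 3897 in Ath1w, 4619 in C10w against 3553 in C1w, and 2648 in ST, a ratio of -1.79. Fgf21, a hormone of the fasted liver, was at least 3.16-fold lower, with 75.2 in Ath10w against 438 in Ath1w, 593 in C10w against 553 in C1w, and 175 in ST. Cpt1a, which brings fatty acids into mitochondria, was at -0.48 by its brightest probe set but at -1.59 and -2.57 by its 2 others, and the thiolase Acaa1a at -0.48 with -2.59 by its other. With the mean of all probe sets 4 members of the list were lower. For both Acot1 and Fgf21 Ath10w was the lowest of the 5 arrays, and with C1w in place of Ath1w 3 of 24 members were lower. The list of gluconeogenesis and fasting genes had 0 of 17 members past 2-fold in either direction, but 15 negative ratios and a median of -0.46, against 0.23 in the chow pair; with C1w in place of Ath1w 2 of 17 were lower and the median was -0.50. Its members with the lowest ratios were the transcription factor Cebpb (-0.94) and the aspartate aminotransferase Got1 (-0.86), and Pck1, the rate-limiting enzyme of gluconeogenesis, was at -0.16. Glycolysis, fructose and glycogen genes lay on the other side of 0, with a median of 0.56 over 12 members, 1 of them higher (Pklr, above), fructokinase Khk at 0.93 and the glucokinase regulator Gckr at 0.90. Against C1w 3 of these 12 were higher.

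**Figure D4:**
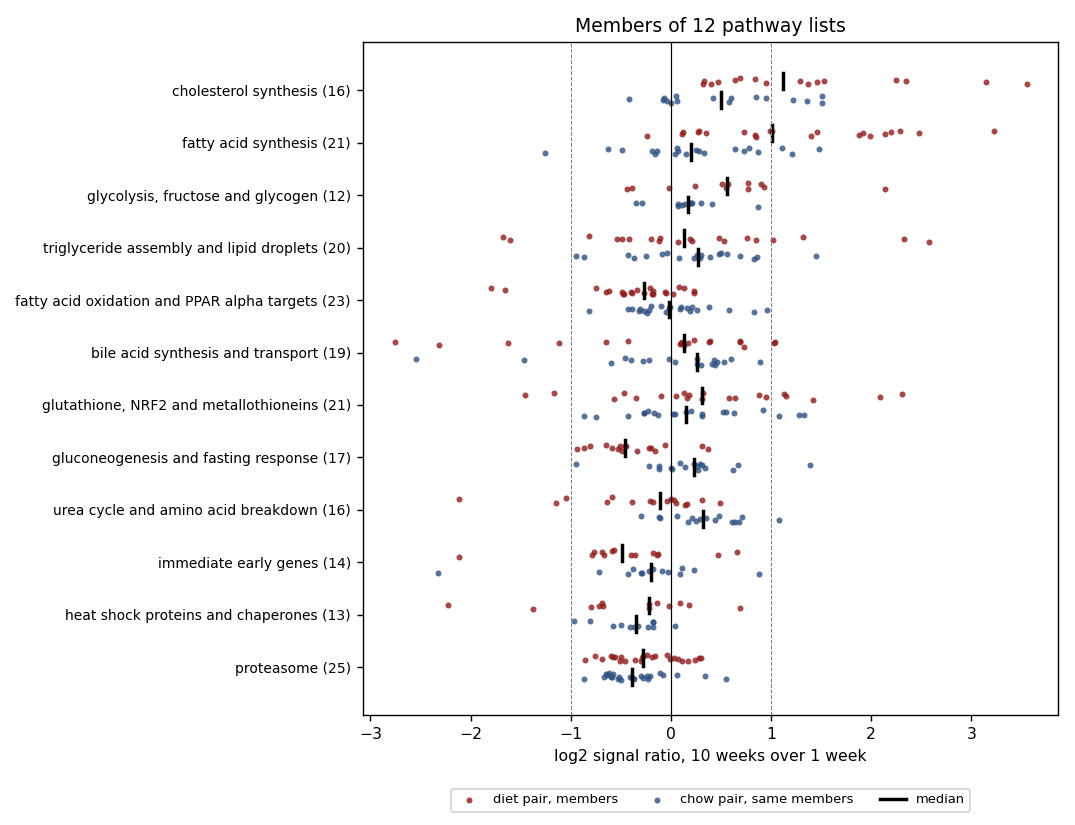
Log2 signal ratios of members of 12 pathway lists, 1 point per gene measured in the diet pair, with Ath10w over Ath1w in red above and C10w over C1w of the same members in blue below (x axis); black bars are medians, dashed lines mark 2-fold, and the number in brackets is the count of members measured in the diet pair. Cholesterol synthesis (median 1.12) and fatty acid synthesis (1.01) lie to the right, gluconeogenesis and fasting (-0.46) and immediate early genes (-0.49) to the left.

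Bile acid genes lay on both sides. Of 19 measured members 2 were higher and 4 lower, with a median of 0.13, against 4.85% and 3.69% of all genes and a median of 0.11. Cyp8b1, the sterol 12-alpha-hydroxylase that sets the share of cholic acid, had 2337 in Ath10w against 7226 in Ath1w, 5933 in C10w against 7196 in C1w, and 4660.0 in ST, a ratio of -1.63 that stayed at -1.62 against C1w. Cyp39a1, an oxysterol 7-alpha-hydroxylase, had 443 in Ath10w against 2214 in Ath1w, 1056 in C10w against 2914 in C1w, and 893 in ST, a ratio of -2.32. Both chow and diet arrays of 1 week exceeded all arrays of 10 weeks for Cyp39a1, and the chow ratio was -1.47. Slco1a1, an importer of bile acids and other organic anions, was at least 6.77-fold lower, with 52.2 in Ath10w against 939.7 in Ath1w, 120.3 in C10w against 808 in C1w, and 232 in ST. It too was lower in C10w than in C1w, at least 5.82-fold, and its other probe set gave -1.01 in the diet pair. The related importer Slco1a4 was at -1.12. Nr0b2, the repressor SHP induced by FXR, had 2021 in Ath10w against 992 in Ath1w, 940.2 in C10w against 1425 in C1w, and 1134 in ST, a ratio of 1.03. Cyp7a1 was at 0.69 by its brightest probe set and 1.47 by the other, but against C1w its sign turned, to -0.36. Akr1d1, a reductase of bile acid synthesis, was at 1.04 with -0.83 by the other. Against C1w 0 of the 19 were higher and 3 lower.

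Several glutathione S-transferases of the mu class were higher. In the list of glutathione, NRF2 and metallothionein genes 5 of 21 measured members were higher and 2 lower, with a median of 0.31. Over all genes 4.85% were higher and 3.69% lower, with a median of 0.11. Gstm3 had 2525 in Ath10w against 509 in Ath1w, 953 in C10w against 1148 in C1w, and 2120.0 in ST, a ratio of 2.31 with 2.35 by its other probe set. Gstm6 was at 2.08, Gstm2 at 1.42, Gstm1 at 1.13 and the alpha-class Gsta3 at 1.15. Against C1w Gstm3, Gstm6, Gstm2 and Gsta3 were at 1.14, 1.16, 0.60 and 0.23, and the list at 2 higher, 1 lower and a median of 0.03, so the low signals of Ath1w, the lowest of the 5 arrays for all 5 genes, decided part of these calls. Genes of this family are closely related, and their probe sets may share signal. The 2 lower members were the metallothioneins, which bind zinc and copper. Mt1 had 5419 in Ath10w against 14887 in Ath1w, 20184 in C10w against 10647 in C1w, and 11950.2 in ST, a ratio of -1.46 with -0.48 by its other probe set, and Mt2 was at -1.16 with 3118 in Ath10w against 6989 in Ath1w, 7759.7 in C10w against 3665 in C1w, and 5308 in ST.

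Of 16 measured genes of the urea cycle and amino acid breakdown 3 were lower and 0 higher, against 3.69% and 4.85% of all genes. Asl, argininosuccinate lyase, which releases arginine in the cycle, had 2946 in Ath10w against 12792 in Ath1w, 11763 in C10w against 11293 in C1w, and 7889 in ST. Ath10w was 4.34-fold below Ath1w, while both chow arrays lay close to Ath1w. Glul, glutamine synthetase of the hepatocytes around the central vein, was at -1.15 with -0.25 by its other probe set, and Cth, cystathionine gamma-lyase, at -1.05. The median of the list was -0.11, and the other urea cycle genes measured were not past 2-fold: the first enzyme Cps1 was at 0.00, Otc at 0.03 and Arg1 at -0.04. Phgdh, the first enzyme of serine synthesis, was at least 8.51-fold higher, with 1181 in Ath10w against 106 in Ath1w, 841 in C10w against 248 in C1w, and 1458 in ST. All 3 arrays of 10 weeks exceeded both of 1 week for Phgdh, and its chow ratio was 1.76. Against C1w 2 of the 16 genes were lower.

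Immediate early, heat shock and p53 target genes held 0 members past 2-fold as higher, where 4.85% of all genes were higher and 3.69% lower. Of 14 measured immediate early genes 12 had a negative ratio, 1 was lower and 0 higher, and the median was -0.49, against -0.15 in the chow pair. The member past 2-fold was Egr1, a zinc-finger factor induced within minutes by growth factors, which had 437 in Ath10w against 1891 in Ath1w, 1595 in C10w against 1958 in C1w, and 1501 in ST. Ath10w was the lowest of the 5 arrays, at -2.11. Fos was at -0.59 in the diet pair and -2.33 in the chow pair. Set against C1w, 1 of 15 measured members was higher and 3 lower, with a median of -0.32. Of 13 heat shock and chaperone genes 2 were lower and 0 higher. Hspa1b, the inducible Hsp70, had 519 in Ath10w against 2424 in Ath1w, 1411 in C10w against 2465 in C1w, and 565 in ST, a ratio of -2.22 with -1.34 and -1.08 by its other 2 probe sets. Both diet arrays of 10 weeks lay low and both arrays of 1 week high. Hsph1, a partner of Hsp70, was at -1.38. Of 11 p53 targets and growth arrest genes 3 were lower and 0 higher, and 5 had a positive ratio, with a median of -0.33 that was -0.05 with the mean of all probe sets. Among the lower ones was Cdkn1a, the cell cycle inhibitor p21, at -1.54 with 321 in Ath10w against 932 in Ath1w; against C1w 2 of 12 were lower. Among 25 proteasome subunits 0 passed 2-fold and 18 had negative ratios, with a median of -0.28, close to the -0.39 of the chow pair.

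Cell cycle genes were mostly too dim to compare. Of 23 with a named probe set 12 were at the floor on both arrays, and of the 11 measured 6 were higher and 1 lower, with a median of 1.01. Since a gene enters this count through 1 array above the floor, members above it only in Ath10w had to be higher, and the count describes these 11 only. Over all genes 4.85% were higher and 3.69% lower, with a median of 0.11. In the chow pair 1 of 10 measured members was higher and 0 lower, with a median of 0.17. That member was Ccnd1 (1.25), which was at 1.06 in the diet pair but at -0.09 and 0.55 by its other probe sets. Fen1, a DNA repair and replication nuclease, was at least 4.99-fold higher, with 693 in Ath10w against 104 in Ath1w, 144 in C10w against 120.0 in C1w, and 151 in ST. Ath10w alone was clearly above the floor. Pcna, the replication clamp, had 1351 in Ath10w against 641 in Ath1w (1.08), the ribonucleotide reductase subunit Rrm1 was at 1.45 with 0.32 by its other probe set, and the other subunit Rrm2 was lower at -1.18. The median was 0.49 with the mean of all probe sets and 0.21 with C1w in place of Ath1w.

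Markers of other liver cells had smaller medians than both lipid synthesis lists. Their counts stand beside 4.85% of all genes higher and 3.69% lower in Ath10w. In bulk tissue, more cells of a type and more RNA per cell cannot be told apart. Of 9 hepatocyte markers with a named probe set 0 were at the floor on both arrays, 0 passed 2-fold, and their summed signal was 246531 in Ath10w and 190236 in Ath1w, against 354773 in C10w and 221761 in C1w. Of 21 macrophage and Kupffer cell markers 3 were higher and 1 lower, with a median of 0.22 in the diet pair and -0.56 in the chow pair, where 0 were higher and 4 lower. Their summed signal was 28525 in Ath10w, 23304 in Ath1w, 19298 in C10w, 26484 in C1w and 39887 in ST. The higher ones were Cd14, the lipopolysaccharide co-receptor (1.21), C1qb (1.04, but -0.85 and -0.25 by its other probe sets) and Adgre1, the F4/80 antigen (1.01), and the lower one was the scavenger receptor Marco (at least 2.09-fold). The Kupffer cell markers Clec4f and Cd5l were at 0.32 and 0.26. With C1w in place of Ath1w 0 of these 21 markers were higher and 1 lower.

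Neutrophil, lymphocyte and red cell markers were dim. Of 7 measured neutrophil markers 1 was higher, lactoferrin Ltf (at least 2.18-fold), and of 10 lymphocyte markers 1 was higher, Ighm at 1.78, with 6 other probe sets between -0.12 and 1.11. Of 15 lymphocyte markers with a named probe set 5 were at the floor on both arrays, as were 5 of 8 bile duct markers and 4 of 7 fat and pancreas markers. The summed signal of lymphocyte markers was 3169 in Ath10w and 2159 in Ath1w, that of red cell markers 1715 in Ath10w and 842 in Ath1w, and that of fat and pancreas markers 1558 in Ath10w and 1178 in Ath1w. Of 17 endothelial markers 1 was higher, Cdh5, the VE-cadherin gene, at 1.65 with 0.61 by its other probe set, and 2 were lower, Ptprb (-1.32) and Plvap (-1.30). Of 11 stellate cell and fibroblast markers 1 was higher, the collagen Col3a1 at 1.01. How far cell composition enters the metabolic lists was not tested.

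**Figure D5:**
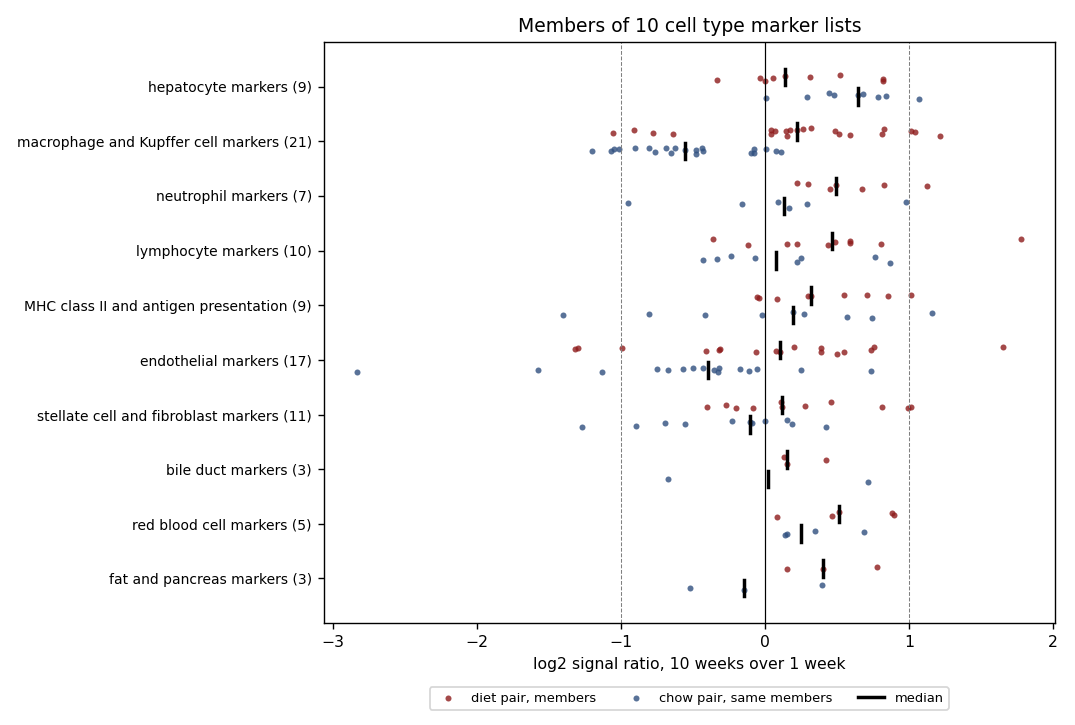
Log2 signal ratios of members of 10 cell type marker lists, 1 point per gene measured in the diet pair, with Ath10w over Ath1w in red above and C10w over C1w of the same members in blue below (x axis); black bars are medians, dashed lines mark 2-fold, and the number in brackets is the count of members measured in the diet pair. Macrophage markers have a median of 0.22 in the diet pair and -0.56 in the chow pair, and the hepatocyte markers 0.14 and 0.64.

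Several of the largest single ratios lay outside the lists described so far. Aqp8, a water channel of hepatocyte membranes, had 3955 in Ath10w against 439 in Ath1w, 1049 in C10w against 552 in C1w, and 988 in ST, 9.01-fold higher in Ath10w than in Ath1w. Serpina6, the corticosteroid-binding globulin of plasma, had 10194 in Ath10w against 1305 in Ath1w, 5733 in C10w against 2166 in C1w, and 4444 in ST, a ratio of 2.97; the order of the arrays, with each 10-week array above its 1-week partner, was the same for both genes. Serpina12, the adipokine vaspin, had 1169.6 in Ath10w against 189 in Ath1w, 145 in C10w against 169.9 in C1w, and 902 in ST. It was high in both arrays of 10 weeks on the diet and close to the floor in the other 3. Car3, a carbonic anhydrase of muscle, fat and liver, had 23426 in Ath10w against 7669 in Ath1w, 22117 in C10w against 7092 in C1w, and 19908 in ST, a ratio of 1.61 in the diet pair and 1.64 in the chow pair. Lgals1, galectin 1, had 1484 in Ath10w against 359 in Ath1w (2.05, other probe set 1.91), and Rdh11, a retinol dehydrogenase, 650.2 in Ath10w against 172 in Ath1w (1.92, other probe set 1.61).

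On the lower side, Nnmt, nicotinamide N-methyltransferase, had 708 in Ath10w against 3899.5 in Ath1w, 3811 in C10w against 5634 in C1w, and 4186 in ST. Ath10w was 5.51-fold below Ath1w (log2 -2.46) and below each of the other 4 arrays, and against C1w the ratio was -2.99. C8b and C8a, subunits of complement component 8, were at -1.92 and -1.61, and in each case Ath10w lay below all other arrays, with C8b at 276 in Ath10w against 1039.7 in Ath1w, 859 in C10w against 959.5 in C1w, and 1057 in ST. Apob, the structural protein of very-low-density lipoprotein, had 6216 in Ath10w against 20125 in Ath1w, 20886 in C10w against 22309.9 in C1w, and 22037 in ST, a ratio of -1.70 with 1 probe set measured. Cpox, an enzyme of heme synthesis, was at -1.90, but at -0.53 against C1w, because its signal of 1154 in Ath10w stood against 4310 in Ath1w but 1662 in C1w. Sult3a1, a sulfotransferase, was at -1.92. Grn, progranulin, had 4082 in Ath10w against 13943 in Ath1w (-1.77), and its 2 other probe sets gave -1.49 and -1.10. Gpt2, the mitochondrial alanine aminotransferase, was at -1.35, with other probe sets at -1.70 and -1.62.

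Some large ratios rested on 1 of several probe sets. Of 143 genes called higher that have 2 or more measured probe sets, 21 had all of them past 2-fold, and 50 had at least 1 with a negative ratio. Of 154 called lower 20 had all past 2-fold, and 63 had at least 1 positive. Over all 3020 genes with 2 or more measured probe sets in the diet pair these agreeing calls were 0.695% higher and 0.662% lower. In the chow pair they were 7 higher and 2 lower of 3049 genes, 0.23% and 0.0656%. Among the agreeing calls were Thrsp, Fabp5, Gstm3, Pklr, Lgals1, Sc5d, Car3, Rdh11, Cyb5b and Uroc1 on the higher side. On the lower side they included Tmed5, Kdm6a, Map2k2, Gpt2, Rhpn2, Peg3, Cdip1, Insig2, Ybx3 and Grn. By contrast Nfic, a nuclear factor I gene, was at least 9.65-fold lower by its brightest probe set and at -0.06 by its other. Vapb, an endoplasmic reticulum membrane protein, was at least 6.25-fold lower and at -0.07 by its other, the kinase gene Pim1 at least 4.59-fold lower and at 0.59. Rusc1 was at -2.51 and between -0.42 and 0.76 by 2 others, and the ubiquilin gene Ubqln2 at -1.99 and 0.13.

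The diet pair and the chow pair share no array, and their calls overlapped in part. Over 8565 genes measured in both, 35 were at least 2-fold higher in both, which is 8.37% of the 418 diet-pair and 16.7% of the 209 chow-pair calls; of all 8565 genes 4.88% were higher in the diet pair and 2.44% in the chow pair. Another 24 were lower in both, 7.21% of 333 and 14.0% of 172, where 3.89% of all genes were lower in the diet pair and 2.01% in the chow pair. Opposite calls numbered 8 higher in the diet pair and lower in the chow pair, 1.91% of 418 and 4.65% of 172, and 12 the other way, 3.60% of 333 and 5.74% of 209. Hao2, a hydroxyacid oxidase, was higher in both, with 1556 in Ath10w against 372 in Ath1w, 1222 in C10w against 224 in C1w, and 612 in ST, and for this gene all 3 arrays of 10 weeks lay above both of 1 week. Besides Phgdh, Car3 and Fdps, given above, Utf1 was at least 3.35-fold higher in the diet pair. Apex1 was at 1.81 in the diet pair and 2.55 in the chow pair, but at -0.50 and 0.02 in the diet pair by its other probe sets. Lower in both were Slco1a1, Cyp39a1 and Rusc1, given above, Rtp3 (at least 3.79-fold in the diet pair), Smpd2 (-1.45 in the diet pair, -1.89 in the chow pair) and Sec14l4 (-1.39 and -1.40).

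Most genes past 2-fold in the diet pair stayed close to 0 in the chow pair, as most genes did. Of the 418 higher ones 284, or 67.9%, lay within 1.5-fold between the chow arrays, and of the 333 lower ones 241, or 72.4%, against 79.9% of all genes measured in both pairs. Among genes past 2-fold in the diet pair and within 1.5-fold in the chow pair, with all 4 signals above the floor, the differences between the 2 ratios were largest, on the higher side, for Serpina12 (2.86), Gstm3 (2.58), Rsrp1 (2.20) and Fabp5 (2.18). Rsrp1 was at -0.76 and -0.49 in the diet pair by its other probe sets. Next came Slc23a1, an ascorbate transporter, at 1.96 in the diet pair and -0.21 in the chow pair. On the lower side of the same genes the order was Cpox (-2.33), Ubqln2 (-2.32), Asl (-2.18), Acot1 (-2.17) and Pqbp1 (-2.14). Arf6, a small GTPase of membrane traffic, was at -1.51 in the diet pair and 0.56 in the chow pair, and its 2 other probe sets in the diet pair gave -1.39 and -1.04.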

How the data were processed

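Liver RNA of 5 groups, 1 pool of livers each, was measured on 1 oligonucleotide array per group. The deposited values are linear intensities, 1 for each probe set on each array, which the authors computed with MAS5 per the submitters' processing notes. How they were scaled is not stated there. They had a 2% trimmed mean of 500.2 on every array.

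From these, signals were rescaled to a trimmed mean of 500, floored at the 40th percentile and taken to log2. Control probe sets (64) were dropped. The annotation gives a single symbol for 20380 of 22690 probe sets, which were used, and several for 691; another 1606 are unnamed here. Each of 12393 genes is represented by its probe set with the highest mean log2 signal, and 99.86% of gene identifiers matched the GRCm38.p6 table. No detection calls were used, no test was possible, and the labels give no batch. The number of arrays limits the precision.

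Named genes were taken by a rule: the 10 largest ratios per direction with both signals above the floor, the 4 largest bounds per direction, the 10 per direction on which all probe sets were past 2-fold, up to 6 members past 2-fold and 2 others of each list, the 10 per direction that differed most from the chow pair, genes past 2-fold in both pairs, and 30 preset genes, of which 28 were measured. Clone names were passed over. Genes named beyond it, to complete a list or give a pathway's key member, were chosen after their values were seen: Abca1, Acaa1a, Acly, Arg1, Cps1, Cpt1a, Cyp51, Ebp, Elovl1, Elovl2, Elovl3, Elovl5, Elovl6, Fads1, Fads2, Gstm1, Hmgcs1, Lss, Nsdhl, Otc, Pck1, Pnpla3, Scd2, Tkfc and Tm7sf2. The 41 gene lists, the rule and the comparison were chosen with earlier results of these data known. The settings varied were the scaling (none, quantile normalization or cyclic loess), the floor (including a pseudocount), the probe set (a mean over all of them, or without those of the x and s types), rules of 1.5-fold and 3-fold, and, added later, C1w in place of Ath1w. The ratio step was run on simulated data with changes placed only in genes well above the floor. That run did not cover dim genes, bounds or a shift that depends on signal level. Python 3.11.15, pandas 2.3.3, R 4.3.3 and limma 3.58.1 were used.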

Additional observations from a re-analysis of the deposited data

Results flagged for a closer look

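Of the named genes 8 were past 2-fold in opposite directions in the diet pair and the chow pair, with 1 array on each side, and this difference was not tested. Acacb, the mitochondrial acetyl-CoA carboxylase, was at 1.39 in the diet pair and -1.26 in the chow pair, with 851 in Ath10w against 324 in Ath1w, 203 in C10w against 484 in C1w, and 66.5 in ST. It was the one member of fatty acid synthesis lower in C10w than in C1w by 2-fold. Cd9, a tetraspanin, was at 1.45 in the diet pair and -1.24 in the chow pair, with 746 in Ath10w against 273 in Ath1w, 195 in C10w against 460.0 in C1w, and 376 in ST. Casr, the calcium-sensing receptor, was at 1.26 in the diet pair and -1.21 in the chow pair, and its signal was 597 in Ath10w against 249 in Ath1w, 336 in C10w against 778 in C1w, and 641 in ST. Pip5k1b, a phosphoinositide kinase, was at 1.55 in the diet pair and -1.20 in the chow pair, both of them bounds, and its other probe set gave 0.38 in the diet pair. On the other side, Glul, glutamine synthetase, was at -1.15 in the diet pair and 1.08 in the chow pair, with 3469 in Ath10w against 7696 in Ath1w, 8632 in C10w against 4080.3 in C1w, and 4059 in ST. Mt2, a metallothionein, was at -1.16 in the diet pair and 1.08 in the chow pair, and the related Mt1 at -1.46 and 0.92. Samhd1, a nucleotide phosphohydrolase, was at -1.16 in the diet pair and 1.81 in the chow pair, with 3 other probe sets between -0.29 and 0.33 in the diet pair. Dedd, a death effector domain gene, was at -1.26 in the diet pair and 1.66 in the chow pair, with others at -0.01 and 0.44 in the diet pair.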

How the results depend on the processing

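No paired analysis was possible because each group holds 1 array. Counts are given as higher and lower, for the diet pair and then for the chow pair, against 441 and 336, and 224 and 179. A floor at the 20th percentile gave 1062 and 682, and 653 and 657, and one at the 60th 191 and 221, and 104 and 67. A pseudocount in its place gave 215 and 208, and 117 and 90, and averaging all probe sets 284 and 207, and 133 and 108. A 1.5-fold rule gave 1693 and 1063, and 984 and 812, and a 3-fold rule 66 and 59, and 34 and 14. Other scalings and leaving out x and s probe sets kept the counts within 1.5 times. Leaving aside C1w in place of Ath1w, 40 of 41 list medians and 137 of 216 named ratios moved by less than the chow pair's SD of 0.48 under every setting. Under the same settings 8 medians, all between -0.11 and 0.18, and 8 named ratios changed sign under at least 1 setting. The medians were those of apolipoproteins (-0.27), growth hormone genes (-0.025), ER stress genes (-0.021) and hepatocyte (-0.043), stellate cell (-0.004) and bile duct (-0.002) markers under quantile normalization, male-biased genes with the 60th percentile floor (0.13) and LXR targets when all probe sets were averaged (0.21). Of ratios past 2-fold the sign turned for C1qb when all probe sets were averaged (-0.018) and, without x and s probe sets, for Apex1 (-0.50), Dedd (0.44) and Samhd1 (0.33). With C1w in place of Ath1w 15 named ratios and 8 list medians changed sign. Past 2-fold were Casr (-0.38), Dedd (0.61) and Samhd1 (0.42), and among the others were Cyp7a1 (-0.36), Cyp2b10 (-1.14), Gsta2 (-1.19), Apoa4 (0.36), Nr1d1 (1.54), Vcam1 (-0.70), Trib3 (0.50) and Nr4a1 (0.20). The medians included those of fat and pancreas markers (-0.031), matrix genes (-0.049) and LXR targets (0.084). The cause was not tested. Dim signals limit what can be compared: 3297 of 12393 genes have no ratio.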

Other observations

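Immune, plasma protein and matrix lists together held members past 2-fold in both directions, against 4.85% of all genes higher and 3.69% lower. Of 23 measured acute phase genes 0 were past 2-fold as higher and 3 as lower, Mt1, Mt2 and the serum amyloid gene Saa3 (-1.14), with a list median of 0.23. Saa1 and Saa2, acute phase apolipoproteins with near-identical sequences, were at 0.30 and 0.88; their signals were 929 in Ath10w against 754 in Ath1w, 778 in C10w against 1094 in C1w, and 19545 in ST, and 569.8 in Ath10w against 311 in Ath1w, 309 in C10w against 409.8 in C1w, and 8822 in ST. ST stood far above the other 4 arrays for both. Of 24 complement and coagulation genes 1 was higher, C1qb, and 2 lower, C8a and C8b. Of 15 interferon-stimulated genes 0 were higher and 1 lower, Rsad2 at -1.47 with other probe sets between -0.32 and 0.42. Of 19 chemokine and inflammatory genes 2 were higher, the chemokine Cxcl9 (1.45) and Cd14, and 1 lower, Socs3 (-1.34). Of 17 matrix genes 3 were higher, Lgals1, Anxa2 (1.21) and Col3a1, and 1 lower, Col4a1 (-1.04).

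In 3 preset clock genes the 3 diet arrays lay apart from the 2 chow arrays. Dbp, a clock output factor, had 1231 in Ath10w against 414 in Ath1w, 108 in C10w against 96.3 in C1w, and 716 in ST, with both chow arrays below the floor, and Arntl, the clock gene Bmal1, had 168 in Ath10w against 279.8 in Ath1w, 637 in C10w against 682 in C1w, and 254 in ST. Nr1d1, the repressor REV-ERB alpha, had 929.9 in Ath10w against 1039 in Ath1w, 190.1 in C10w against 321 in C1w, and 771 in ST. For Clock the diet arrays did not lie apart, with 200 in Ath10w, 422 in Ath1w, 211 in ST, 315 in C10w and 355 in C1w. In the diet pair 2 of 13 measured clock genes were higher, Dbp (1.57, other probe set 0.32) and Bhlhe40 (1.03), and 1 lower, Clock (-1.08, other probe set -1.18). Over all genes 4.85% were higher and 3.69% lower. Against C1w 6 of 15 measured clock genes were higher and 2 lower. The labels give no time of day for the collection of the livers, and its part was not tested.

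Of 28 respiratory chain genes and 19 cytosolic ribosomal protein genes 0 passed 2-fold, with medians of 0.14 and 0.15 in the diet pair, against -0.11 and -0.06 in the chow pair; against C1w both medians turned negative, at -0.075 and -0.060. Of 12 genes of the growth hormone and IGF axis, the IGF carrier subunit Igfals was higher (1.54 in the diet pair, 1.06 in the chow pair) and Igfbp2 was lower (-1.09). Of 19 drug-metabolising genes 1 was higher and 2 lower, against 4.85% of all genes higher and 3.69% lower. The higher one was Cyp2c70, which makes muricholic acids in mice. Its signal was 14770.4 in Ath10w against 4898 in Ath1w, 9823 in C10w against 6199 in C1w, and 10229 in ST. The lower ones were Cyp1a1 (-1.21) and Cyp2d9, the latter only just past 2-fold.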
